A study of Mus musculus with 12 samples.

Results

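Solute carriers are membrane proteins that move nutrients, ions, vitamins and metabolites across the cell surface and across the membranes of organelles. They are numbered by family, each with its own kinds of substrate. The genes described here were all rows of a deposited expression table whose symbol began with Slc and a digit, apart from the mitochondrial Slc25 carriers and 8 genes left out by name (Slc2a1, Slc16a3, Slc1a2, Slc1a3, Slc43a1, Slc43a2, Slc7a5 and Slc3a2). No measured value entered the rule, although the genes were chosen with earlier results of these data known. It found 183 of the 12774 genes in the table. Of these, 179 were carriers from 42 families. The other 4 carry an Slc symbol without being carriers, namely Slc4a1ap, an adaptor protein, Slc7a6os, a gene on the opposite strand to Slc7a6, and the scaffold proteins Slc9a3r1 and Slc9a3r2.

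The cells were C17.2, a mouse neural progenitor line, stably expressing a tagged thyroid hormone receptor, alpha in the line C17.2a and beta in the line C17.2b. All cells were kept without serum for 24 h, and were then given triiodothyronine (T3, the active thyroid hormone) at 1e-07 M or left untreated for 6, 12 or 24 h. The 12 groups were thus T3 and untreated cells of each line at each of the 3 times, with 1 library of digital gene expression tags in each. Whether a line is 1 clone or a pool is not given in the sources used here.

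T3 enters cells through carriers, among them members of the monocarboxylate family, and then binds receptors in the nucleus that act as transcription factors. These receptors recognise copies of the half-site AGGTCA in DNA, best known as a direct repeat with a spacer. In the developing brain, thyroid hormone is known for its part in the maturation of neurons and glia, cells with large needs for lipids, amino acids and ion transport.

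All levels are RPM values as the authors deposited them, in which the tags of each gene are scaled to a library total that is the same for every library. The depth implied by the smallest steps between values ran from 7.12e+06 to 1.91e+07 tags per library, and 3 tags corresponded to 0.157 to 0.422 RPM. The progenitor markers Nes, Vim and Sox2 were present in every library, at 70.23 to 641.71, 1112.07 to 4940.95 and 61.96 to 305.94 RPM. Markers of other neural cells were measured too. The 3 of 7 neuron markers in the table summed to 45.1 to 578 RPM with T3 and 71.4 to 314 RPM untreated, mostly Tubb3, the 3 of 5 astrocyte markers to 201 to 272 RPM with T3 and 172 to 261 RPM untreated, with Gfap at 0.6 to 3.92 RPM, and the 4 of 5 oligodendrocyte markers to 235 to 948 RPM with T3 and 310 to 863 RPM untreated, with Mbp at 0.54 to 2.88 RPM. The 1 of 5 microglia markers in the table was at most 0.18 RPM with T3 and 0.42 RPM untreated, and the endothelial markers were not analysed here. The 7 of 8 progenitor markers in the table summed to 1352 to 3079 RPM with T3 and 2320 to 5770 RPM untreated, and 4 of 5 fibroblast markers to 1259 to 7308 RPM with T3 and 1371 to 4838 RPM untreated. The part of such differences in the results was not tested. In these bulk samples, fewer cells of a type and less RNA per cell cannot be told apart. The C17.2a 24 h pair stood apart from the others, with 19.4% of all genes at least 2-fold lower with T3, so results are also given without that pair. Which library of the pair is unusual was not tested.

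Of the 183 genes, 35 had no value in at least 1 library and were read as 0 there, and 12 lay under the 3-tag floor in all 12 libraries. The T3 tests covered 140 of them, those that reached 1 RPM in 3 or more libraries. The 43 others had a median of 0.46 RPM for their highest value. Of the 140, 2 passed this filter only through the T3 libraries and 5 had fewer than 3 libraries at 1 RPM in either treatment. Log2 fold changes are T3 minus untreated on the log2(RPM + 1) scale, which understates changes of genes at low RPM, and each stands with the standard error (SE) of a limma fit over 6 pairs of libraries of the same line and time.

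T3 raised a small, mixed set of carriers in the fit shared by both lines. It held the fatty acid carrier Slc27a1, the nucleotide sugar carrier Slc35a3 and the neutral amino acid exchanger Slc1a5, which also passed in each line alone. It also held the choline carrier Slc44a1, which passed alone in C17.2b only, and the ascorbate carrier Slc23a2, which passed in neither line alone. In the response shared by all pairs, 12 of the 140 genes rose and 2 fell, against 4.09% and 2.35% of all 10577 genes tested. The counts by class given below are to be read against these same shares of all genes. The members' shares were 8.57% higher and 1.43% lower, and their median log2 fold change was 0.05, against -0.007 over all genes. Without the C17.2a 24 h pair, 26 rose and 5 fell among 137, against 9.14% and 5.81% of all genes, and all 14 shared calls were among these 31. Of the 12, 1 (Slc12a5) met the filter only through its T3 libraries, which favours a call, and 11 rose without it.

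Lipid and choline carriers held the largest response among the genes called. Slc27a1 takes up long-chain fatty acids and links them to coenzyme A. It had 7.77, 8.68 and 21.73 RPM at 6, 12 and 24 h of T3 in C17.2b, against 1.05, 0.9 and 2.17 RPM untreated, and 10.93, 8.99 and 16.94 RPM with T3 in C17.2a, against 2.63, 2.13 and 7.66 RPM untreated. All 6 T3 libraries lay above all 6 untreated ones, although the lowest T3 value, 7.77 RPM, was close to the untreated 24 h value of C17.2a. The shared log2 fold change was 1.95 (SE 0.22, adjusted p = 0.00127). Ratios of the single pairs, after 2 tags were added to each library, ran from 2.18 in C17.2a at 24 h to 9.01 in C17.2b at 24 h.

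Slc44a1, a choline carrier of the plasma membrane and mitochondria, had 49.8, 73.86 and 84.38 RPM with T3 at 6, 12 and 24 h in C17.2b, against 23.57, 24.93 and 32.01 RPM untreated. In C17.2a it had 36.48, 41.9 and 39.72 RPM with T3, against 30.93, 19.9 and 32.56 RPM untreated. The treatments did not overlap over the 12 libraries, but in C17.2a the pairs of 6 h and 24 h lay close together. The shared log2 fold change was 0.92 (SE 0.19, adjusted p = 0.02). Of the 6 tested genes of this class, these 2 rose and none fell, and the class median was 0.19.

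**Figure D1:**
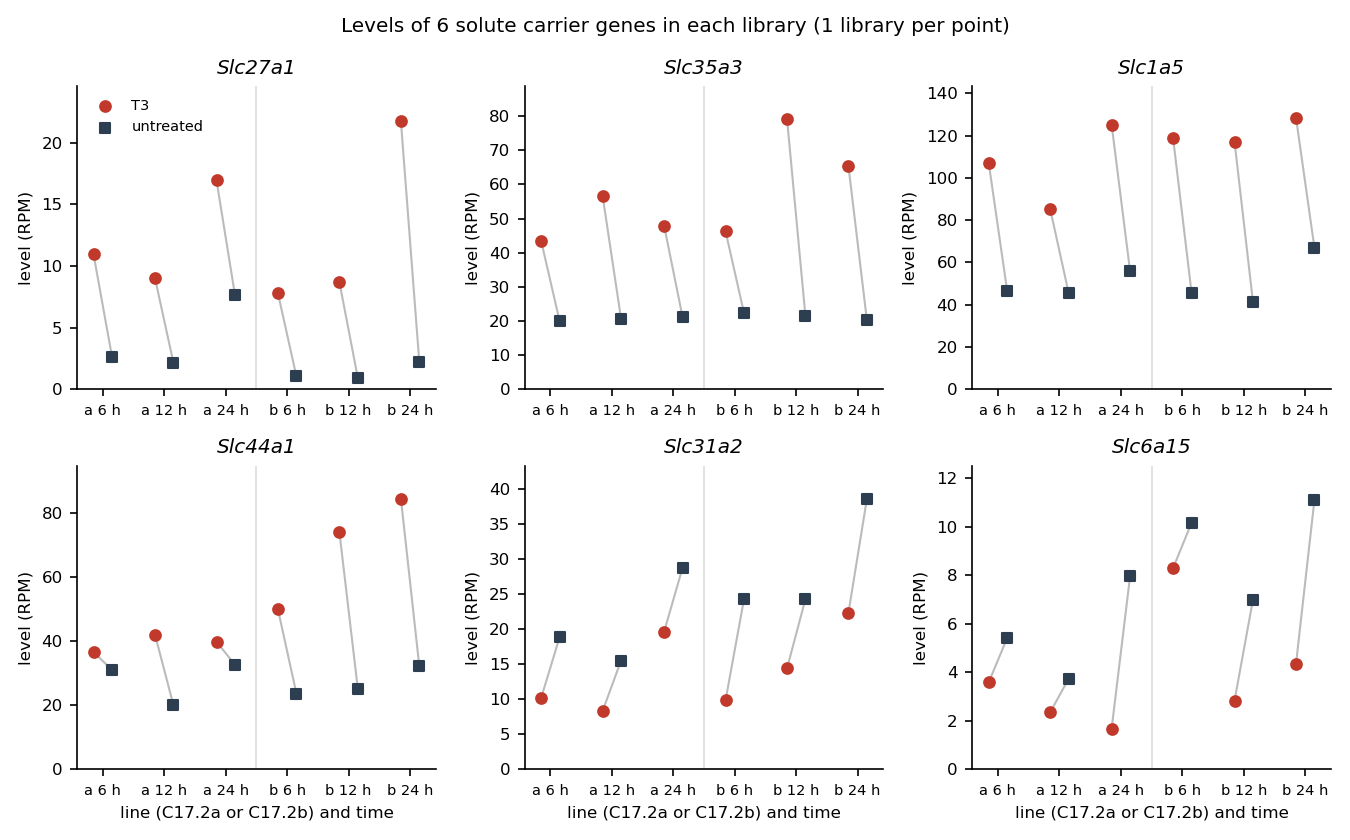
Levels in RPM (vertical axes, from 0) of 6 solute carrier genes in the 12 libraries, by line and time (horizontal axes). Circles are T3 libraries and squares their untreated partners, joined by a line. Slc27a1, Slc35a3, Slc1a5 and Slc44a1 were higher with T3 in all 6 pairs, and Slc31a2 and Slc6a15 were lower in all 6.

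Among the 22 tested carriers of nucleosides and nucleotide sugars, 3 rose and none fell, and the class median was -0.03. Slc35a3, which brings UDP-N-acetylglucosamine into the Golgi for glycan synthesis, had 43.43, 56.62 and 47.95 RPM with T3 at 6, 12 and 24 h in C17.2a, against 20.02, 20.7 and 21.23 RPM untreated. In C17.2b it had 46.29, 79.26 and 65.32 RPM with T3, against 22.37, 21.43 and 20.21 RPM untreated. Its untreated level thus stayed between 20.02 and 22.37 RPM over both lines and all times, and every T3 library was at least 2-fold above its partner. The log2 fold change was 1.35 (SE 0.13, adjusted p = 0.000661). The orphan carriers Slc35f1 and Slc35e4 also rose, by 0.60 (SE 0.14) and 0.54 (SE 0.12), with adjusted p of 0.0322 and 0.0352. In the C17.2a 24 h pair their log2 ratios were only 0.03 and 0.02, against 0.42 to 0.98 for Slc35f1 and 0.45 to 0.83 for Slc35e4 in the other 5 pairs.

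Of the 17 tested amino acid carriers, 1 rose and none fell, with a class median of 0.12. That gene was Slc1a5, the sodium-dependent exchanger of glutamine and other neutral amino acids. It had 107.14, 85.35 and 125.24 RPM with T3 at 6, 12 and 24 h in C17.2a, against 46.7, 45.66 and 55.93 RPM untreated, and 118.85, 117.08 and 128.54 RPM with T3 in C17.2b, against 45.78, 41.17 and 66.87 RPM untreated. The treatments did not overlap, with a lowest T3 value of 85.35 RPM and a highest untreated value of 66.87 RPM. The log2 fold change was 1.17 (SE 0.10, adjusted p = 0.000421). Slc7a1, the cationic amino acid carrier with the smallest p in its family, did not pass, at 0.29 (SE 0.10, adjusted p = 0.139).

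In the SLC6 family of sodium- and chloride-coupled carriers for neurotransmitters and amino acids, 1 of 8 tested genes rose and 1 fell. Slc6a15, a neuronal carrier of branched-chain amino acids and proline, had 3.58, 2.34 and 1.67 RPM with T3 at 6, 12 and 24 h in C17.2a, against 5.41, 3.73 and 7.96 RPM untreated. In C17.2b it had 8.3, 2.83 and 4.35 RPM with T3, against 10.16, 7 and 11.12 RPM untreated. Every T3 library was below its own partner, but the treatments overlapped, because the T3 6 h value of C17.2b exceeded 4 of the untreated values. The log2 fold change was -0.87 (SE 0.20, adjusted p = 0.0362), and the adjusted p was 0.0585 when no filter on low values was used. The row of Slc6a17, which loads neutral amino acids into synaptic vesicles, was higher by 0.57 (SE 0.10, adjusted p = 0.00956). Its 12 values, however, were identical to those of the potassium channel Kcnj16, so that which of these genes the tags came from is uncertain.

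Metal carriers were the largest class, with 24 tested genes, of which 2 rose and 1 fell, and a class median of 0.11. Slc31a2, a copper carrier of intracellular membranes, had 10.14, 8.28 and 19.56 RPM with T3 at 6, 12 and 24 h in C17.2a, against 18.79, 15.46 and 28.68 RPM untreated. In C17.2b it had 9.79, 14.35 and 22.29 RPM with T3, against 24.2, 24.22 and 38.52 RPM untreated. Both treatments were higher at 24 h, so the ranges overlapped, but each T3 library was below its partner. The log2 fold change was -0.81 (SE 0.12, adjusted p = 0.00467).

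The magnesium carrier Slc41a1 lay at 17.34 to 23.38 RPM with T3 and 11.47 to 14.69 RPM untreated, with no overlap, and rose by 0.59 (SE 0.12, adjusted p = 0.0197). Slc30a9, a zinc transporter of mitochondria, rose by 0.49 (SE 0.10, adjusted p = 0.0238) against a much larger change with time, described with the untreated cells. Its levels were 16.49 to 21.17 RPM with T3 and 11.91 to 14.17 RPM untreated at 6 and 12 h, and 98.52 and 114.1 RPM with T3 against 78.49 and 68.36 RPM untreated at 24 h. None of the 9 tested zinc importers of the SLC39 family passed, and the one with the smallest p, Slc39a14, was at 0.27 (SE 0.15, adjusted p = 0.412).

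Among vitamin carriers, 1 of 5 tested genes rose. Slc23a2, the sodium-coupled ascorbate carrier found in most tissues, had 9.9 to 15.98 RPM with T3 and 4.34 to 8.47 RPM untreated, with no overlap, and a log2 fold change of 0.81 (SE 0.16, adjusted p = 0.0165). Of the 9 tested sugar and sugar phosphate carriers, 1 rose. This was Slc37a4, which takes glucose-6-phosphate into the endoplasmic reticulum. It had 16.21 to 32.21 RPM with T3 and 10.57 to 15.54 RPM untreated and rose by 0.57 (SE 0.13, adjusted p = 0.0349), most in the C17.2a 24 h pair, at 1.03.

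The cation and chloride cotransporters set the cell's chloride and volume. Of 7 tested genes 1 rose, Slc12a5, the potassium and chloride cotransporter that is typical of mature neurons. It had 1.7, 1.95 and 6.31 RPM with T3 at 6, 12 and 24 h in C17.2b, against 0.16, 0 and 0.54 RPM untreated, and 1.09, 1.27 and 1.67 RPM with T3 in C17.2a, against 0.31, 0.27 and 0.61 RPM untreated. Every T3 library was above every untreated one, but the untreated values were near the floor of 3 tags, the mean was 12.2 tags, and the gene passed the filter only through its T3 libraries. Since that filter favours a difference, its fitted log2 fold change of 1.21 (SE 0.22) is a description, and it depends on the pseudocount and is not a bound. Its relative Slc12a4 had 50.97, 52.16 and 86.63 RPM with T3 in C17.2b, against 23.83, 30.04 and 27.67 RPM untreated. In C17.2a it had 50.09 and 53.72 RPM with T3 at 6 and 12 h, against 29.38 and 25.05 RPM untreated, but 19.08 RPM with T3 at 24 h, against 38.38 RPM untreated. The shared fit gave 0.72 (SE 0.28, adjusted p = 0.218) with all pairs and 1.05 (SE 0.12, adjusted p = 0.000198) without the C17.2a 24 h pair.

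**Figure D2:**
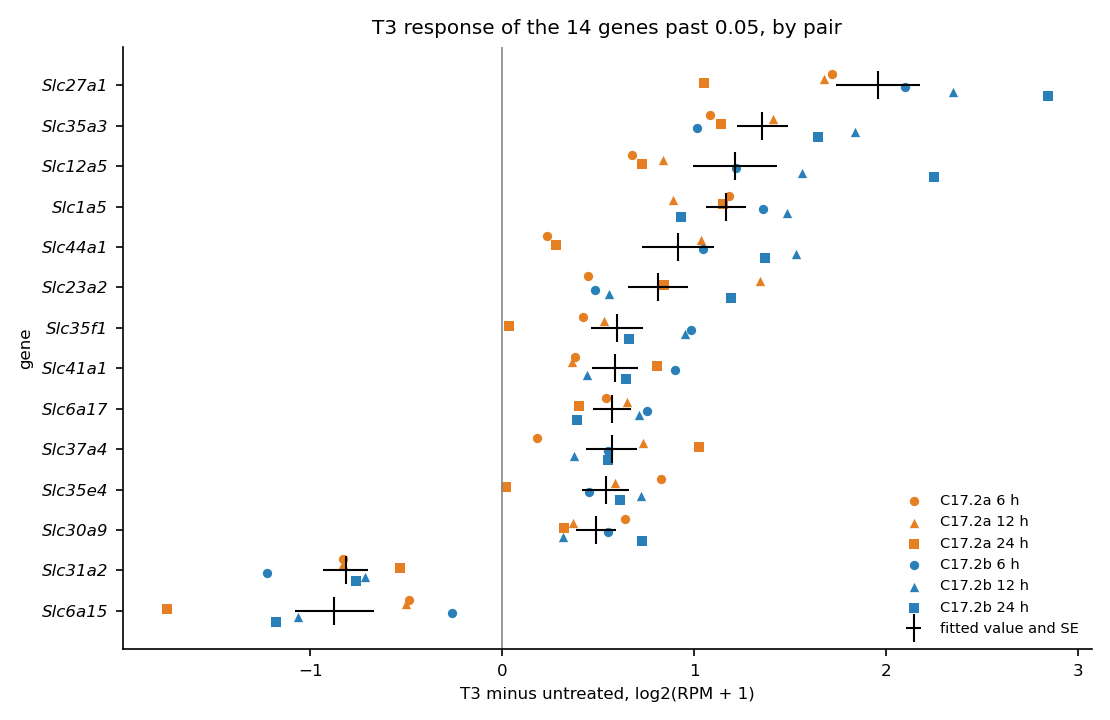
T3 minus untreated on the log2(RPM + 1) scale (horizontal axis) for the 14 genes with an adjusted p under 0.05 in the shared fit. Coloured symbols are the 6 pairs by line and time, and black marks are the fitted value with its SE. All 6 pairs lie on 1 side of 0 for each gene, and the fitted values run from -0.87 for Slc6a15 to 1.95 for Slc27a1.

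No gene passed among the 10 bicarbonate and chloride carriers of the families SLC4 and SLC26, the 8 exchangers of sodium, calcium and protons, the 6 mono- and dicarboxylate carriers, the 6 carriers of bile acids and organic ions and the 4 carriers of phosphate and vesicular anions. At an unadjusted p under 0.05, 36 of the 140 genes stood out, against 18.1% of all genes tested. Within these classes, Slc4a3, an anion exchanger, was at -0.47 (SE 0.17, adjusted p = 0.184), and Slc9a9, a sodium and proton exchanger of endosomes, was at -0.25 (SE 0.15, adjusted p = 0.455). For the families of 5 or more tested genes not yet described, the smallest p belonged to Slc38a1, a glutamine carrier of neurons, at 0.28 (SE 0.12, adjusted p = 0.247).

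Some carriers of thyroid hormone itself belong to the monocarboxylate family. One of these, Slc16a10, known as MCT10, had 14.91, 14.93 and 42.82 RPM with T3 at 6, 12 and 24 h in C17.2a, against 10.21, 13.32 and 23.99 RPM untreated. In C17.2b it had 10.75, 10.01 and 19.62 RPM with T3, against 8.75, 9.42 and 14.24 RPM untreated. It was higher in all 6 pairs, but its log2 fold change of 0.38 (SE 0.13) did not pass (adjusted p = 0.148). Slc7a8, another such carrier, was not analysed here. Slc16a1, the lactate and pyruvate carrier MCT1, was likewise higher in all 6 pairs, at 0.59 (SE 0.16, adjusted p = 0.0635), and passed without the C17.2a 24 h pair, at 0.48 (SE 0.13, adjusted p = 0.0279).

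**Figure D3:**
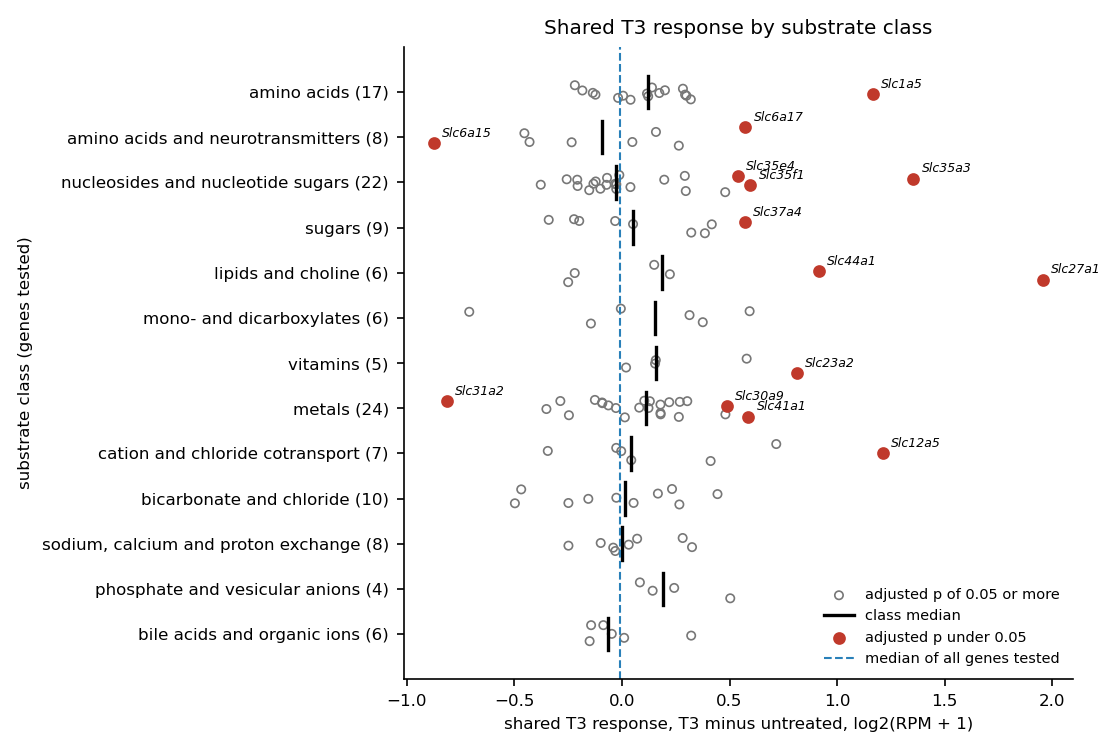
Shared T3 response on the log2(RPM + 1) scale (horizontal axis) of the tested genes, by substrate class with the number tested in brackets. Filled points have an adjusted p under 0.05, black bars are class medians and the dashed line is the median of all genes tested, -0.007. Classes with under 4 tested genes and the 4 genes that are not carriers are left out. Class medians stay between -0.09 and 0.19, while single genes such as Slc27a1 lie far from them.

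Libraries were also ranked without a model. In 9 of the 140 genes (6.43%) all 6 T3 libraries lay above all 6 untreated ones, against 1.47% of all genes. Among them were Slc27a1, Slc35a3, Slc1a5, Slc44a1, Slc23a2, Slc41a1, Slc37a4 and, through the filter, Slc12a5, without which the number was 8. No gene had all T3 libraries below all untreated ones, against 0.529% of all genes. Only 4 of the 14 shared calls, Slc27a1, Slc35a3, Slc1a5 and Slc31a2, passed whichever single pair was left out. The adjusted p of the other 10 reached 0.0554 to 0.142. The number of calls was 4 without the C17.2b 12 h pair, 6 without the C17.2b 24 h or the C17.2a 12 h pair and 8 without the C17.2b 6 h pair.

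The lines were also fitted apart, with 3 pairs each and a shared estimate of the spread. In C17.2b, 6 genes rose and 1 fell, against 2.25% and 0.86% of all genes. Slc27a1 rose by 2.43 (SE 0.22, adjusted p = 0.00156), Slc35a3 by 1.5 (SE 0.18, adjusted p = 0.00537) and Slc44a1 by 1.32 (SE 0.19, adjusted p = 0.0107). Slc1a5 rose by 1.26 (SE 0.15, adjusted p = 0.00495), Slc35f1 rose by 0.87 (SE 0.15, adjusted p = 0.02), and Slc31a2 fell by 0.90 (SE 0.17, adjusted p = 0.0301). The other of the 6 was Slc12a5, at 1.68 (SE 0.23), which met the filter only through T3 libraries and leaves 5 when set aside. With the C17.2a 24 h pair left out, which changes the filter and the estimate of the spread but no library of C17.2b, 24 rose and 5 fell, against 7.59% and 3.74% of all genes. Calls numbered 3, 1 and 2 without the C17.2b pair of 6, 12 or 24 h.

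In C17.2a, 3 genes rose and none fell, against 0.908% and 0.463% of all genes. They were Slc27a1 at 1.48 (SE 0.22, adjusted p = 0.021), Slc35a3 at 1.21 (SE 0.18, adjusted p = 0.0213) and Slc1a5 at 1.07 (SE 0.15, adjusted p = 0.0165), all 3 of which also passed in C17.2b. Without the 24 h pair of C17.2a, 7 rose and 2 fell, against 2.8% and 1.65%. Leaving out the 6 h or the 12 h pair of C17.2a, or the 12 h pair of C17.2b, left no call in C17.2a, with 22 to 35 members at an unadjusted p under 0.05.

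Genes past the threshold in C17.2b and not in C17.2a were not shown to differ between the lines. The test of the difference between the responses, C17.2b minus C17.2a, called no member, against 0.0% of all genes higher and 0.0% lower, with 17 of 140 members under an unadjusted p of 0.05 and 5.51% of all genes. The smallest p values belonged to Slc48a1, a heme carrier, with a difference of 0.80 (SE 0.23), Slc27a1 with 0.95 (SE 0.32), Slc35a2, the Golgi carrier of UDP-galactose, with 0.70 (SE 0.24), Slc44a1 with 0.80 (SE 0.27) and Slc12a5 with 0.93 (SE 0.33). The adjusted p was 0.722 for each of the 5. Slc48a1 overlaps Hdac7 on the opposite strand, and whether tags were counted by strand was not given in the sources used here.

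No member passed in the test of the response at 24 h minus 6 h, against 0.0% of all genes higher and 0.0% lower. An unadjusted p under 0.05 was found for 3 of 140 members and 5.61% of all genes. The differences were -0.93 (SE 0.25) for the orphan carrier Slc22a23, -1.09 (SE 0.39) for Slc6a15 and 0.75 (SE 0.31) for the myo-inositol carrier Slc5a3, whose row may share tags with the overlapping gene Mrps6. They were 0.86 (SE 0.40) for Slc38a4, a neutral amino acid carrier, and -0.79 (SE 0.37) for Slc7a3, a cationic amino acid carrier. The adjusted p was 0.726 for each of these 5. Leaving out the C17.2b 24 h pair, so that the 24 h response rests on the C17.2a pair alone, gave 42 calls among the members, 12 higher and 30 lower, against 11.5% and 20.8% of all genes. That lone 24 h pair is assumed to vary like the pairs of the other times.

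Single pairs have no replicate and no test, and were described by genes with at least 50 implied tags and a ratio of at least 2-fold. In C17.2a, 3 members were higher and none lower at 6 h, against 2.14% and 1.62% of all genes, and 7 were higher and none lower at 12 h, against 2.64% and 1.17%. In C17.2b, 8 were higher and 3 lower at 6 h, against 3.46% and 1.75% of all genes, 5 higher and 1 lower at 12 h, against 3.21% and 1.72%, and 7 higher and 2 lower at 24 h, against 4.94% and 1.86%. Slc27a1 and Slc35a3 were past 2-fold in all 6 pairs, Slc1a5 and Slc44a1 in 4, and Slc12a4 in 3, while Slc6a15 was lower in 3.

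Other carriers crossed 2-fold under these limits in fewer pairs. Slc16a7, the pyruvate and lactate carrier MCT2, had 2.23, 2.39 and 1.4 RPM with T3 at 6, 12 and 24 h in C17.2b, against 5.39, 4.84 and 4.75 RPM untreated. In C17.2a it had 0.89, 1.27 and 1.55 RPM with T3, against 3.17, 1.24 and 1.74 RPM untreated, and its RPM without added tags was at least 2-fold lower with T3 in 4 pairs. Its response in C17.2b was -1.01 (SE 0.26, adjusted p = 0.0898), and the adjusted p was 0.0145 without the C17.2a 24 h pair. In C17.2b at 6 h, the phosphate carrier Slc34a1 had 7.77 RPM with T3 against 3.61 RPM untreated. In C17.2b at 24 h, the iron exporter Slc40a1 had 14.3 RPM with T3 against 5.15 RPM untreated. The thiamine carrier Slc19a2 had 6.45 RPM with T3 against 14.11 RPM untreated in C17.2b at 24 h, but 29.82 RPM with T3 against 12.96 RPM untreated in C17.2a at 24 h, so its pairs of that time went opposite ways.

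The C17.2a 24 h pair had 11 members higher and 17 lower, against 6.51% and 19.4% of all genes. Its lowest ratios belonged to Slc44a2, a choline-like carrier, with 15.27 RPM with T3 against 74.41 RPM untreated, and Slc39a13, a zinc carrier of the secretory pathway, with 9.54 RPM with T3 against 41.75 RPM untreated. Slc39a13 overlaps Psmc3 on the opposite strand. The bicarbonate carrier Slc4a4 had its highest ratio there, 2.93, with 5.13 RPM with T3 against 1.63 RPM untreated, followed by the sugar phosphate carrier Slc37a1 at 2.57. Of the 17 genes that passed in the shared fit only without this pair, 13 had the opposite sign in it. Picking genes by leaving the pair out favours such signs, and the same count over all genes was not made. Slc46a1, the proton-coupled folate carrier, was higher by 0.79 (SE 0.16, adjusted p = 0.00566) without the pair, against a log2 ratio of -0.47 in it. Slc6a6, the taurine carrier, was higher by 0.46 (SE 0.08, adjusted p = 0.003) without it, against -0.72 in it.

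Promoter sequences were looked up for the 14 genes called in the shared fit, and 12 of them had 20 entries in the RefSeq table for GRCm38.p6, each with 250 bases before and 50 after a start site. Both strands were searched for the half-site AGGTCA, for the direct repeat of AGGTCA with a spacer of 4 bases, and for ACGTG, the core of the hypoxia response element, which also lies inside the E-box CACGTG, where its matches on the 2 strands overlap. AGGTCA was found in 2 of the 20 promoters (Slc31a2 and Slc37a4), against 16.3% of all 32851 in the table. The direct repeat was found in none, against 0.0152%, and ACGTG in 4 (Slc12a5, Slc27a1, Slc31a2 and Slc41a1), against 19.6%. The printed promoters are those of Slc27a1 and Slc35a3, which were past 2-fold in every pair, and of both genes with a half-site. They lie at chr8:71570344-71570643 on the plus strand for Slc27a1 (1 of 3 listed), chr3:116712231-116712530 on the minus strand for Slc35a3, chr4:62286179-62286478 on the plus strand for Slc31a2 and chr9:44396696-44396995 on the plus strand for Slc37a4 (1 of 3 listed). Capitals mark AGGTCA, and ACGTG with its overlapping match on the other strand.
Slc27a1: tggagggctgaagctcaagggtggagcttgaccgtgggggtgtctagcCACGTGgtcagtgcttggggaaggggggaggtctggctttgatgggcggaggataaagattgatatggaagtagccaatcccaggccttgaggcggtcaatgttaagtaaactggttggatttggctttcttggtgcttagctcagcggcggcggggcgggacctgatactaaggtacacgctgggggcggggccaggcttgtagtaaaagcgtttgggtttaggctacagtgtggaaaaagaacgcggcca
Slc35a3: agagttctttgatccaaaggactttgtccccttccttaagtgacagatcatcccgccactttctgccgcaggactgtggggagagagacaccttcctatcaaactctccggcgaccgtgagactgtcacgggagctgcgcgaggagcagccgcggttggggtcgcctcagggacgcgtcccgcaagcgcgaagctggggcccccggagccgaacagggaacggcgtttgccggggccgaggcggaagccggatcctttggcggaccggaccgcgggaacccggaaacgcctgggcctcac
Slc31a2: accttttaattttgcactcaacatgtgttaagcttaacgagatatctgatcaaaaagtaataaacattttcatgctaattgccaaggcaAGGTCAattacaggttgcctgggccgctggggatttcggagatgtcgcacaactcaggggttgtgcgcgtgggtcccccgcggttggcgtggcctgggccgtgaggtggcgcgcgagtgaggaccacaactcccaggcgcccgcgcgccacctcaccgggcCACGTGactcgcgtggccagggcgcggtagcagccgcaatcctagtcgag
Slc37a4: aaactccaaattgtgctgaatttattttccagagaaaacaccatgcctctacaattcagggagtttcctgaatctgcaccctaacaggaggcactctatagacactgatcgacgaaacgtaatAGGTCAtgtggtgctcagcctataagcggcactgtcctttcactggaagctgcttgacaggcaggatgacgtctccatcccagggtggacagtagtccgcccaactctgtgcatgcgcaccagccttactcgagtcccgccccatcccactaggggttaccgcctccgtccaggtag
The printed promoter of Slc27a1 holds CACGTG and no half-site, and that of Slc35a3 holds neither motif. That of Slc31a2 holds both, and the printed one of Slc37a4 holds 1 half-site. The other promoters listed for Slc27a1 and Slc37a4 hold neither motif, so for these genes the one with a match was printed. A match is a string of letters and not a binding site.

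Other membrane transport genes served as a frame, in the shared fit, where 4.09% of all genes tested were higher and 2.35% lower. Among 25 tested ABC transporters 4 rose with T3 and none fell, with Abca1, the cholesterol exporter, at 1.65 (SE 0.18, adjusted p = 0.00106). Among 23 tested P-type ATPases and their subunits 4 rose and 1 fell, with the sodium pump subunit Atp1b2 at 1.63 (SE 0.29, adjusted p = 0.0117) and the lipid flippase Atp10b at -2.07 (SE 0.16, adjusted p = 0.000245). Of 2 tested organic anion carriers of the Slco group, Slco3a1 rose by 0.92 (SE 0.16, adjusted p = 0.00927). The chaperones of monocarboxylate carriers did not pass, with Bsg at 0.47 (SE 0.15, adjusted p = 0.112) and Emb at -0.0023 (SE 0.15, adjusted p = 0.995).

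Without hormone the lines differed in several carriers of ions and metals. Among 133 genes tested in the 6 untreated libraries, 4 were higher and 15 lower in C17.2b than in C17.2a, against 2.93% and 5.92% of all 10192 genes. The lowest was Slc24a3, an exchanger of sodium for calcium and potassium. It had 3.3, 2.96 and 5.29 RPM at 6, 12 and 24 h in C17.2b, against 19.02, 19.19 and 14.9 RPM in C17.2a, with a log2 difference of -1.97 (SE 0.22, adjusted p = 0.000723). Slc40a1, also known as ferroportin, had 1.31, 0.9 and 5.15 RPM in C17.2b, against 5.26, 5.42 and 21.74 RPM in C17.2a, a difference of -1.69 (SE 0.19, adjusted p = 0.000775).

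Every untreated C17.2b value of both genes lay below every C17.2a value. The same held for Slc16a9, a carnitine carrier of the monocarboxylate family, with 0.21, 0.09 and 0.14 RPM in C17.2b, which is near or under the 3-tag floor, against 1.39, 1.24 and 1.74 RPM in C17.2a (difference -1.10, SE 0.20). Slc4a4 was at -1.04 (SE 0.22, adjusted p = 0.0165) and Slc27a1 at -0.998 (SE 0.22, adjusted p = 0.0194). Slc2a6, a hexose carrier, lay at 0.16 to 0.95 RPM in C17.2b and 1.33 to 3.02 RPM in C17.2a (difference -1.07, SE 0.25). Slc16a9, Slc2a6 and Slc46a1 reached 1 RPM only in C17.2a, where they are higher, which favours a call, and without these 3 the lower calls number 12. These 12 are not all free of the filter. Slc7a2 had 0.52, 0.54 and 1.49 RPM in C17.2b, against 1.62, 1.07 and 4.9 RPM in C17.2a, which carried it through. Slc40a1, Slc27a1 and Slc4a4 also had a C17.2b library under 1 RPM, at 0.9, 0.9 and 0.54 RPM. The call of Slc2a6 was lost at a pseudocount of 5, with an adjusted p of 0.0553 in limma.

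Higher in C17.2b were Slc16a7 with 5.39, 4.84 and 4.75 RPM at 6, 12 and 24 h, against 3.17, 1.24 and 1.74 RPM in C17.2a (difference 1.02, SE 0.21, adjusted p = 0.016), and Slc22a23 with 42.85, 43.59 and 115.57 RPM, against 22.42, 16.43 and 75.43 RPM (0.96, SE 0.16, adjusted p = 0.00499). The proline carrier Slc6a7 was higher by 0.94 (SE 0.20, adjusted p = 0.0164) and Slc35f1 by 0.54 (SE 0.13, adjusted p = 0.0269). Slc6a7 had 1.83, 2.24 and 3.53 RPM in C17.2b, against 0.62, 0.71 and 1.12 RPM in C17.2a. It thus met the filter through C17.2b, where it is higher, which favours a call. Its adjusted p in limma was 0.0543 to 0.07 in the fits without 1 time that still held it. Slc22a23 rose with time in both lines, so its ranges overlapped between the lines while each C17.2b library was above the C17.2a library of its time. By class, 4 of 23 tested metal carriers were lower in C17.2b and none higher, against 5.92% and 2.93% of all genes. These counts rest on 3 libraries a line and on time as a block, and no member passed in limma without that block, where 10 had an unadjusted p under 0.05. Without the 6 h libraries 4 members passed, and the share of all genes in that fit is not given here.

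**Figure D4:**
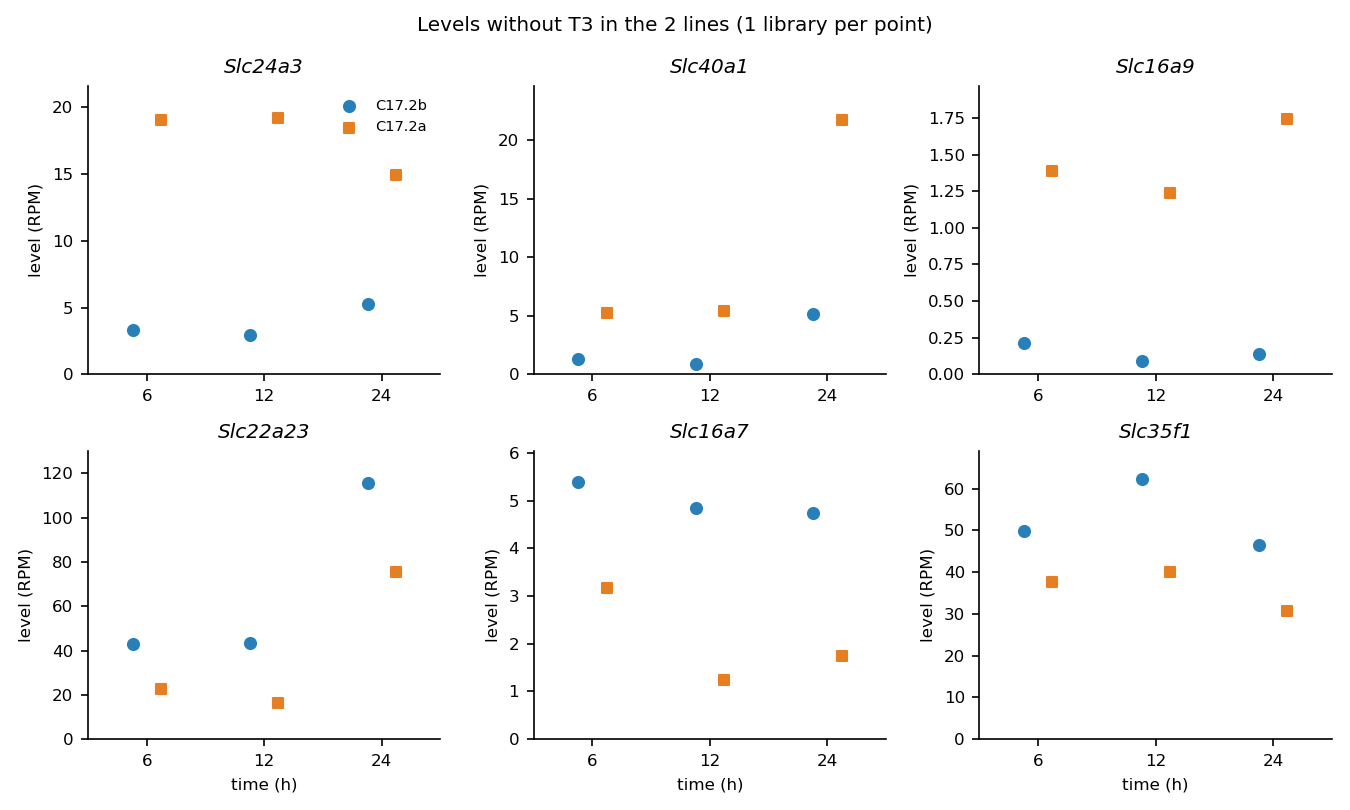
Levels in RPM (vertical axes, from 0) without T3 at 6, 12 and 24 h (horizontal axes) for 6 genes that differed between the lines. Circles are C17.2b and squares C17.2a, 1 library each. Slc24a3, Slc40a1 and Slc16a9 are lower and Slc22a23, Slc16a7 and Slc35f1 higher in C17.2b at each time.

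Many carriers differed with time in cells without serum and hormone. At 24 h, 51 of 133 genes were higher and 11 lower than at 6 h in untreated cells, against 43.0% and 13.1% of all genes. The median log2 difference over all genes was 0.40 as deposited. After median-ratio scaling, which moved that median by -0.43, the split of the members was 36 higher and 33 lower, against 24.8% and 25.6% of all genes. As deposited, the members' shares were 38.3% higher and 8.27% lower, each below that of all genes. Whether the members' shares differ from those of all genes was not tested under either scaling. Time in culture and time since serum removal cannot be told apart, and the 24 h libraries also differ from the earlier ones in every such comparison.

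The genes named here kept their direction and passed under both scalings. Slc38a10, an amino acid carrier, had 110.82 RPM at 24 h, against 22.16 RPM at 6 h, in C17.2b and 143.41 RPM, against 20.64 RPM, in C17.2a, with a log2 difference of 2.505 (SE 0.17, adjusted p = 1.61e-05) as deposited and 2.06 after scaling. Slc30a9 was higher at 24 h by 2.41 (SE 0.18, adjusted p = 1.99e-05) and Slc29a3, a nucleoside carrier of lysosomes, by 2.05 (SE 0.20, adjusted p = 5.18e-05). Slc4a3 and the orphan Slc12a9 were both higher by 1.87 (SE 0.24 and 0.28, adjusted p = 0.000168 and 0.00043). After scaling these 4 were at 1.97, 1.61, 1.48 and 1.49 in that order.

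Among the genes that fell, Slc4a10, a sodium-coupled bicarbonate carrier of neurons, had 1670.02 RPM at 24 h, against 6960.43 RPM at 6 h, in C17.2b and 806.47 RPM, against 5525.4 RPM, in C17.2a. Its difference was -2.42 (SE 0.34, adjusted p = 0.000321). Slc38a9, an arginine sensor of lysosomes, had 805.44 RPM at 24 h, against 2249.73 RPM at 6 h, in C17.2b and 396.23 RPM, against 2006.39 RPM, in C17.2a (difference -1.91, SE 0.27, adjusted p = 0.000327). These rows were the most tag-rich of all those named, and which transcripts their tags came from was not given in the sources used here. Slc4a10 ran from 806.47 to 7650.63 RPM over all libraries, against 1112.07 to 4940.95 RPM for the progenitor marker Vim. Whether the falls in these rows are those of the named genes was not tested.

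Of the rows that are not carriers, Slc7a6os fell by 2.46 (SE 0.27, adjusted p = 9.01e-05) and Slc4a1ap, which overlaps Supt7l on the opposite strand, by 1.6 (SE 0.25, adjusted p = 0.000536). The source of the tags in these rows was not given either. Slc30a5, a zinc carrier of the secretory pathway, fell by 1.37 (SE 0.16, adjusted p = 0.000104) and Slc33a1, which takes acetyl-CoA into the endoplasmic reticulum, by 1.24 (SE 0.15, adjusted p = 0.000127). After scaling these 6 lay between -2.91 and -1.68. Slc30a9 and Slc30a5, both zinc transporters, thus had opposite changes with time. By class, 12 of 23 metal carriers were higher and 3 lower as deposited, against 43.0% and 13.1% of all genes, and 11 higher and 6 lower after scaling, against 24.8% and 25.6%.

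**Figure D5:**
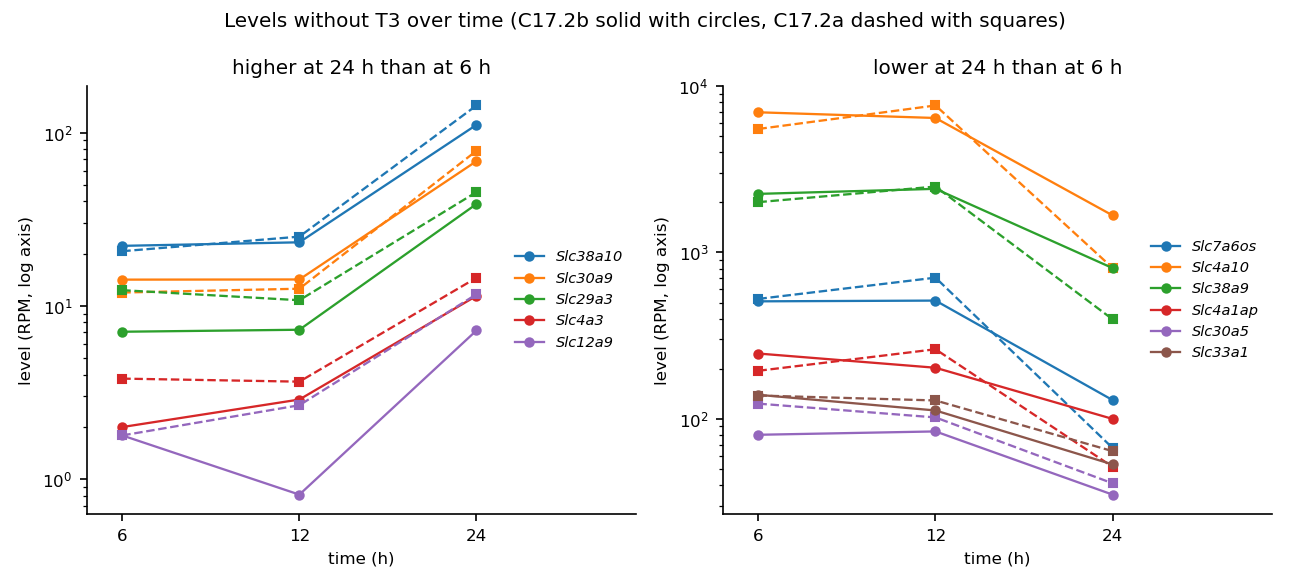
Levels in RPM on log axes without T3 at 6, 12 and 24 h (horizontal axes) of 11 genes that differed with time, those higher at 24 h in the left panel and those lower in the right. Solid lines with circles are C17.2b and dashed lines with squares C17.2a, 1 library per point. The levels at 12 h stay mostly near those at 6 h, and the change lies between 12 and 24 h, as for Slc38a10 with 23.23 RPM at 12 h and 110.82 RPM at 24 h in C17.2b.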

How the data were processed

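Messenger RNA of 12 libraries, 1 per line, treatment and time, was measured by digital gene expression, per the series title. The authors deposited 1 table of 12774 symbols in RPM, a unit read from the column sums, and the submitters' processing notes name the build mm9. How tags were aligned and assigned to genes, and whether by strand, is not given in the sources used here. N/A was read as 0. The value of 1 tag was estimated from the steps between values under 1.5 RPM. Between 89.0% and 93.8% of those values were whole multiples of it within 0.0055 RPM, so whole counts were not recovered, and no count test was run. The floor of 3 tags covers counting error only.

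Tests used limma 3.58.1 in R 4.3.3 on log2(RPM + 1), using lmFit and eBayes (trend on). P-values were adjusted after Benjamini and Hochberg over every gene that reached 1 RPM in 3 or more libraries of the fit, and the threshold was 0.05. The fits were also run on simulated tags in which each changed gene had the same known fold in every changed library. Real pairs may vary more, so that run cannot show how well the fits do on these libraries. Line and time pairs of libraries were blocks for T3. Untreated fits had the other factor as a block. The labels do not state that the libraries are separate cultures. The T3 p-values therefore reflect only how much the pairs differ, which may be technical. Those of the untreated fits reflect how much the time differences vary between the lines, which may be technical too. Single pairs used ratios after 2 tags were added per library.

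Members, substrate classes and lists were chosen with earlier results of these data known. Named were all shared calls with 1 sign in 6 pairs and a mean of at least 20 tags, up to 6 highest and lowest calls in each line, in untreated lines and in time, the 5 smallest p for differences, the extreme ratios of single pairs, thyroid hormone carriers and the smallest p of each family with 5 or more tested members. Slc46a1 and Slc6a6 were also described after their values were seen. Some genes that the rule picks are not reported here. Alternatives were other scaling, filters, pseudocounts, blocks and tag limits, and leaving out each pair. Of the 183 symbols, 182 were current in the RefSeq list of genes and 1 was a synonym. Neighbouring genes came from GENCODE M21.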

Additional observations from a re-analysis of the deposited data

How the results depend on the processing

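No alternative reversed a named gene. Over all named genes and alternatives, 645 comparisons kept their side of the threshold, 83 lost it and 14 gained it. Leaving out 1 pair at a time, the shared response had 4 to 31 calls among the members against 14, C17.2a 0 to 9 against 3, C17.2b 1 to 29 against 7, the difference between lines 0 against 0, and 24 h minus 6 h 0 to 42 against 0. The upper ends came without the C17.2a 24 h pair, except for 42, which came without the C17.2b 24 h pair. The lower ends of the shared response and of C17.2b came without the C17.2b 12 h pair. The untreated lines had 4 to 18 calls against 19 when 1 time was left out. For untreated time, leaving out a line left no residual degrees of freedom and was not run.

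Without the pair as a block, C17.2b had 12 calls against 7, and every other T3 count stayed within 1.5 times. Without the block on time, the untreated lines had 0 calls against 19, and with a filter at 5 RPM they had 10. At a limit of 100 tags the C17.2b 6 h pair had 7 genes past 2-fold against 11. No other setting moved a total count of calls by over 1.5 times, but median-ratio scaling moved the lower calls for untreated time to 33 against 11 and the higher ones to 36 against 51, and the higher calls for untreated lines were 6 against 4. Precision is limited by 1 library a group and, under about 1 RPM, by tags near the floor of 3. The cause of these moves was not tested.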
